A study of Homo sapiens with 43 samples.

Results

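The BAF (SWI/SNF) complexes use the energy of ATP to slide and evict nucleosomes, and the 31 genes described here encode their subunits. The members were chosen by name and matched to the deposited gene identifiers through their Ensembl IDs, and all 31 were found among the 58780 Ensembl genes of the files. Each complex is built around 1 of 2 interchangeable ATPases, SMARCA4 or SMARCA2, which is joined to core subunits. Most of the core is common to the forms, but SMARCB1 and SMARCE1 are absent from ncBAF. Canonical BAF (cBAF) adds ARID1A or ARID1B and a DPF protein, PBAF adds ARID2, PBRM1, PHF10 and BRD7, and non-canonical BAF (ncBAF) adds BRD9 and BICRA or BICRAL. SS18 and SS18L1 are shared by cBAF and ncBAF, and BCL11A and BCL11B are accessory factors of lymphoid and neural cells. In many subunit families 1 of several paralogues occupies a single place in the complex, so the makeup of the complexes differs between cell types. BRM014 is a small molecule that inhibits the ATPase activity of both SMARCA4 and SMARCA2.

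RNA sequencing of polyadenylated RNA gave 43 libraries in 22 groups, 39 from GM12878, a lymphoblastoid line (B cells immortalised with Epstein-Barr virus), and 4 from HepG2, a line from a liver tumour. In HepG2 the comparison was 24 h of 10 µM BRM014 against DMSO. In a GM12878 pretreatment experiment all cells first received DMSO or 10 µM BRM014 for 30 min, and then vehicle, interferon gamma (IFNg, 100 ng/mL) or dexamethasone (Dex, a synthetic glucocorticoid, 500 nM) for 1 h or 6 h. In a GM12878 stimulus panel with no BRM014, cells received DMSO or PBS as vehicle or 1 of 6 agents for 6 h. These were Dex or the DNA-damaging drug doxorubicin (Dox), each at 500 nM, IFNg at 100 ng/mL, interleukin 2 (IL2) at 50 U/mL, tumour necrosis factor (TNF) at 25 ng/mL and bacterial lipopolysaccharide (LPS) at 10 ng/mL. Every group had 2 libraries except Dox, which had 1. The labels do not say that the 2 libraries of a group came from separate cultures, so p-values measure the spread between these libraries, which may be technical.

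Libraries held 12.9 to 22.9 M counts in GM12878 and 3.06 to 19.9 M in HepG2, where BRM014 replicate 2 was the shallowest of the series. The 8 B cell markers summed to 10955 to 13563 TPM (a length-scaled share of all transcripts) in GM12878 and to 70.5 to 203 TPM in HepG2. There CR2, MS4A1 and PAX5 were at 0, and 4 of the 8 reached 1 TPM in at least 1 library. The 8 hepatocyte markers summed to 0.88 to 2.91 TPM in GM12878 and to 13715 to 23959 TPM in HepG2, so each line carried the markers of its label. Of the members, 29 passed the filter on low counts in GM12878 and 26 in HepG2. ACTL6B, a neuronal actin-like subunit, had 0 counts in all GM12878 libraries, and SMARCD3, the muscle-enriched SMARCD paralogue, stayed under the filter in both lines. Below, CPM are depth-scaled counts, adjusted by TMM within an experiment. Fold changes are on the log2 scale with the standard error (SE) of the edgeR fit, and "rose", "fell" and "changed" are kept for a Benjamini-Hochberg adjusted p under 0.05 in edgeR's quasi-likelihood test.

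The balance of the ATPase genes differed between the lines. SMARCA2 stood second among the members in GM12878 on the TPM scale, which allows genes to be compared per length, at 255 ± 16.2 TPM (SD, n = 8 libraries with vehicle). In HepG2 it stood eighteenth, at 21.6 ± 3.48 TPM (SD, n = 2, DMSO). SMARCA4 had 77.1 ± 2.29 TPM in GM12878 and 74.2 ± 10.2 TPM in HepG2. Of the TPM of both ATPase genes together, SMARCA2 made up 65.5% to 86.5% over all GM12878 libraries (median 76.4%, n = 39) and 16.7% to 26.4% over all HepG2 libraries (median 18.4%, n = 4), so the ranges of the lines did not overlap. TPM rests on the effective length that RSEM assigns to a gene in each library.

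Among the other members of GM12878, ACTB, the actin gene whose product also sits in the complex, led with 12137 ± 676 TPM (SD, n = 8). SMARCB1, a core subunit, followed SMARCA2 with 189 ± 7.06 TPM, and SMARCE1, the core subunit with an HMG box, with 119 ± 9.37 TPM. The next 4, SMARCD1, SMARCA4, SMARCD2 and SMARCC1, had means of 68.3 to 78.1 TPM, and the libraries of each neighbouring pair overlapped. In HepG2 the order after ACTB (3262 ± 329 TPM, SD, n = 2) was SMARCE1 at 145 ± 14.5, BRD7 at 133 ± 1.90, SMARCB1 at 101 ± 0.93 and PHF10 at 99.6 ± 11.03 TPM. BRD7 and PHF10, both PBAF subunits, had 42.2 ± 3.91 and 16.0 ± 1.67 TPM in GM12878 (SD, n = 8).

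**Figure D1:**
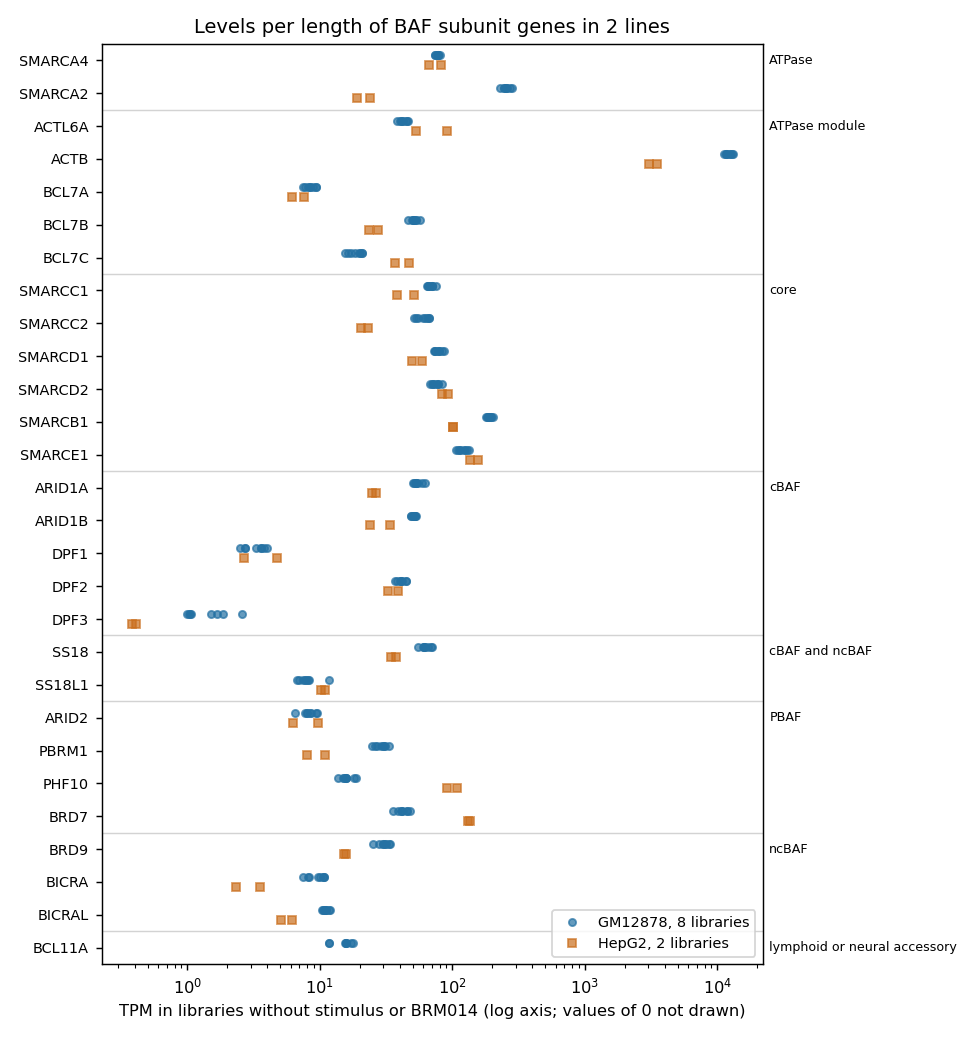
TPM (horizontal axis, log scale) of 28 members in the 8 GM12878 libraries with vehicle (circles) and the 2 HepG2 DMSO libraries (squares), grouped by place in the complex; SMARCD3, ACTL6B and BCL11B are left out as too low. SMARCA2 lies near 255 TPM in GM12878 and near 21.6 TPM in HepG2, while PHF10 and BRD7 lie higher in HepG2.

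In a fit of both lines (HepG2 with DMSO or BRM014 at 24 h, GM12878 with DMSO or BRM014 and vehicle at 6 h), 79% of 15902 genes differed between the DMSO groups, 38.1% higher and 41% lower in HepG2. Of 29 members tested 4 were higher and 21 lower in HepG2, a share of lower members above the background and of higher ones below it. This lean was not particular to the members. Of 23 remodellers outside the BAF family 2 were higher and 16 lower, and of 13 coactivator genes 2 were higher and 9 lower. Of 28 Polycomb genes 10 were higher and 12 lower. The median log2 differences of these lists were -0.62, -0.63 and -0.13, beside -0.69 for the members and -0.07 for all genes. SMARCA2 differed by -3.68 ± 0.10 and SMARCA4 by -0.39 ± 0.082 on the log2 scale (edgeR adjusted p = 2.98e-17 and 0.000214). The members higher in HepG2 were the PBAF subunits PHF10 (1.98 ± 0.097) and BRD7 (1.53 ± 0.091), BCL7C of the ATPase module (0.99 ± 0.12) and SS18L1 (0.65 ± 0.12). BCL11A had 980 counts in the GM12878 DMSO libraries and 0 in HepG2, at least 233-fold lower in HepG2 against a floor of 3 counts over the group. Line, time and experiment differ together here and cannot be told apart, and in bulk RNA a change in the share of cells cannot be told from a change in RNA per cell.

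The shares of the other paralogue sets varied. ARID1A held 48.8% to 64.3% of the TPM of ARID1A and ARID1B in GM12878 and 43.6% to 50.9% in HepG2. SMARCC1 held 41.9% to 60.3% of the SMARCC pair in GM12878 and 65.0% to 68.6% in HepG2, without overlap. BCL7B was the main BCL7 gene in GM12878 (63.0% to 70.4% of the TPM of the 3), and BCL7C in HepG2 (51.0% to 61.1%). DPF2 held 83.9% to 92.6% of the DPF genes in every library of both lines, SS18 at least 75.9% of its pair, and BICRAL 41.7% to 70.6% of its pair in GM12878 and 63.3% to 70.4% in HepG2.

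Under BRM014 the CPM of the 2 ATPases moved in opposite directions in both lines. With vehicle at 6 h, SMARCA4 had 228 and 215 CPM in the DMSO libraries and 264 and 279 CPM with BRM014. SMARCA2 had 676 and 706 CPM with DMSO and 495.5 and 524.6 CPM with BRM014. Neither gene's groups overlapped: SMARCA4 rose by 0.29 ± 0.052 and SMARCA2 fell by 0.44 ± 0.045 on the log2 scale (edgeR adjusted p = 3.05e-05 and 3.17e-09).

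In HepG2 at 24 h SMARCA4 had 165 and 164 CPM with DMSO and 240.1 and 247 CPM with BRM014, and SMARCA2 had 50.7 and 53.8 CPM with DMSO and 37.5 and 30.1 CPM with BRM014. SMARCA4 rose by 0.56 ± 0.087 and SMARCA2 fell by 0.58 ± 0.13, again with no overlap (edgeR adjusted p = 5.53e-05 and 0.00137). Without the shallow BRM014 replicate 2 the values were 0.55 and -0.48, and both calls were kept. The share of SMARCA2 in the TPM of the pair went from 76.7% and 78.0% to 65.5% and 67.8% in GM12878, and from 19.0% and 26.4% to 16.7% and 17.8% in HepG2. The TPM of SMARCA2 alone did not show the fall in HepG2. It was 19.1 and 24.0 with DMSO, and the highest of the 4 libraries, at 25.4 TPM, was with BRM014. The lower share in HepG2 thus went with SMARCA4, which had 67.1 and 81.4 TPM with DMSO and up to 117 TPM with BRM014. The test of the difference between the lines called neither ATPase, with 0.22 ± 0.12 for SMARCA4 and -0.17 ± 0.15 for SMARCA2.

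The IFNg and Dex arms of the pretreatment experiment, which used other libraries, gave the same directions at 6 h. SMARCA4 had 229 and 209.6 CPM after DMSO and 264 and 259 CPM after BRM014 in the IFNg arm (0.25 ± 0.052), and 204 and 197 against 251 and 257 CPM in the Dex arm (0.34 ± 0.052). SMARCA2 had 703 and 743 against 532 and 550.1 CPM in the IFNg arm (-0.42 ± 0.045), and 1265 and 1239 against 669 and 677.5 CPM in the Dex arm (-0.90 ± 0.045). At 1 h, over the vehicle, IFNg and Dex arms, the 12 libraries lay between 215 and 237 CPM for SMARCA4 and between 650 and 707 CPM for SMARCA2. Neither gene was called at 1 h, with mean differences of -0.05 ± 0.030 and -0.04 ± 0.026, and the change of the BRM014 effect from 1 h to 6 h was called for both (0.34 ± 0.043 and -0.54 ± 0.037).

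**Figure D2:**
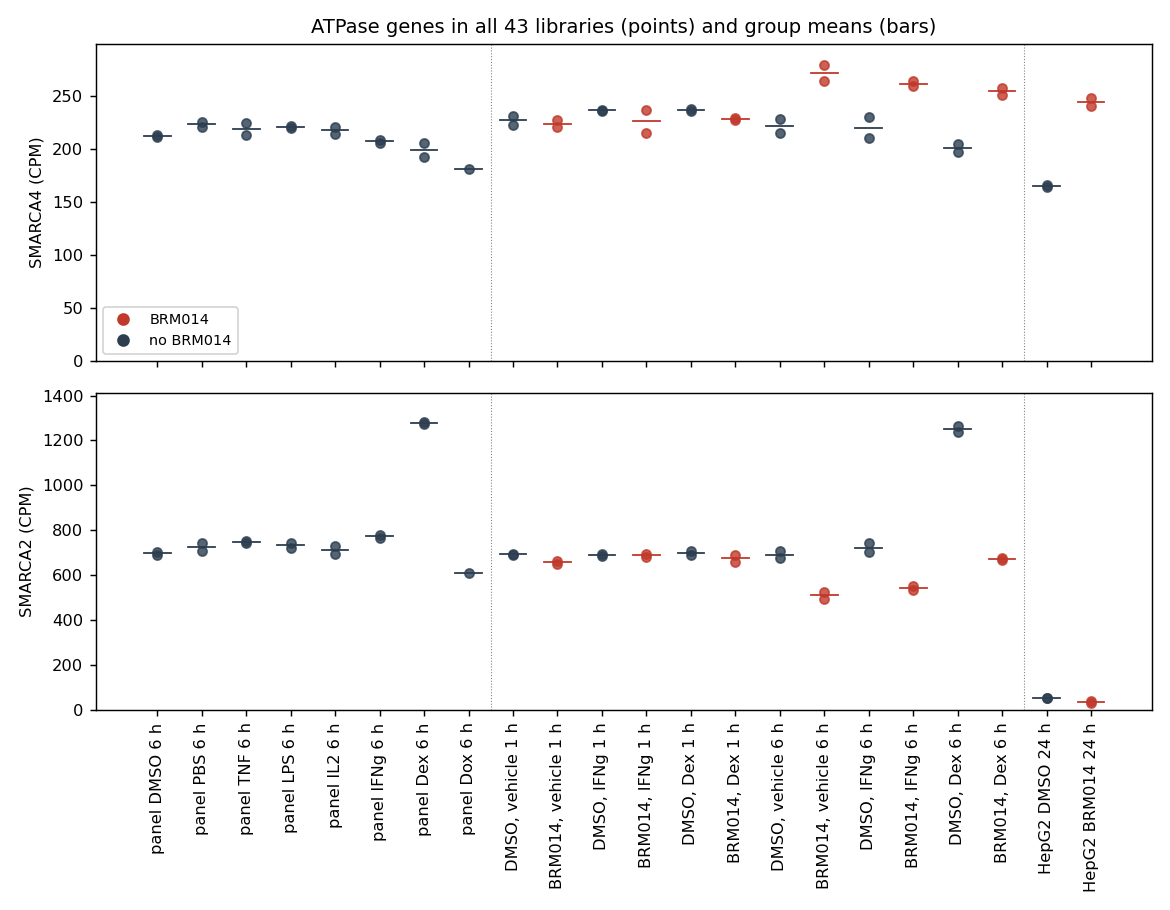
CPM (vertical axes, starting at 0) of SMARCA4 and SMARCA2 in all 43 libraries; points are libraries, bars group means, red marks BRM014, and dotted lines separate the panel, pretreatment and HepG2 experiments, each scaled on its own. At 6 h and 24 h the BRM014 libraries lie above DMSO for SMARCA4 and below it for SMARCA2, and the Dex libraries without BRM014 stand at 1239 to 1283 CPM for SMARCA2.

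Sequence upstream of a RefSeq start is shown for both ATPase genes, whose transcripts moved apart under BRM014, and for SMARCB1, a core subunit whose transcript fell in GM12878. The bases come from RefSeq promoters (GRCh38.p14) and run 5′ to 3′ on the plus strand, from 250 bases before the RefSeq start to the last base before the gene's first GENCODE exon in the window. SMARCA4 is at chr19:10960780-10960931, SMARCA2 at chr9:2015097-2015185 and SMARCB1 at chr22:23786716-23786930. The SMARCA2 gene spans 1980290 to 2193624 in GENCODE. Its stretch thus lies inside the gene, before the RefSeq start at 2015347, and not before the first base of the gene. Capitals mark matches, on either strand, to the letters of a GC box or an AP-1 site.
SMARCA4: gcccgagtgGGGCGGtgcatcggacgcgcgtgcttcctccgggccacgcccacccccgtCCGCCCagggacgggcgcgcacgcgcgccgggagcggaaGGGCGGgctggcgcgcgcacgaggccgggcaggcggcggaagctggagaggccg
SMARCA2: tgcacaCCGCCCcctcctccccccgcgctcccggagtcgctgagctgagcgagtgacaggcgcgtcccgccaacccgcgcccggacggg
SMARCB1: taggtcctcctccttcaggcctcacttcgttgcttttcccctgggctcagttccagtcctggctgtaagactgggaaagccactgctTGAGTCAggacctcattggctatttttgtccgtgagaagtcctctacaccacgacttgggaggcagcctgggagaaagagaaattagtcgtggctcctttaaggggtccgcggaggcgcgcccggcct
A promoter was found for 26 of the 31 members. In the full 250 bases, read on both strands, a GC box (GGGCGG) was present in 16 of the 26, against 42.3% of 27305 promoters, and the core of an ETS site (CCGGAA) in 5 of 26, against 14.8%. An AP-1 site (TGACTCA) was present in 1, SMARCB1, against 4.16%, and an E-box (CACGTG) in 2, PBRM1 and BCL11B, against 6.49%. The single glucocorticoid receptor hexamer (AGAACA) was present in 1, BCL11B, against 12.4%, and the palindromic glucocorticoid response element, which holds that hexamer, in 0 of 26, against 0.00366%. These are matches of letters in a short window and were not tested as sites. The median GC content was 66.6% for the members (38.8% to 86.4%) and 58.0% for all promoters.

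At 6 h with vehicle, BRM014 changed 16 of 29 members in GM12878, of which 11 rose and 5 fell. The background was 38.5% of 15183 genes called, 18.4% higher and 20.1% lower, and the median log2 difference was 0.11 for the members and 0.01 for all genes. In HepG2 at 24 h, 15 of 26 members changed, 13 higher and 2 lower, against a background of 42.1% of 13349 genes, 19.3% higher and 22.8% lower. The HepG2 medians were 0.24 for the members and -0.01 for all genes. The share of members that rose was thus above the background in both lines, and the share that fell was close to it in GM12878 and below it in HepG2. Of 26 members tested in both lines, 6 were called in the same direction, 37.5% of the GM12878 list and 40% of the HepG2 list: SMARCA4, SMARCA2, BCL7B, ARID1A, BRD7 and BICRAL. None was called in opposite directions. The share of all genes called alike in both lines was not counted, so this overlap cannot be set against a background.

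**Figure D3:**
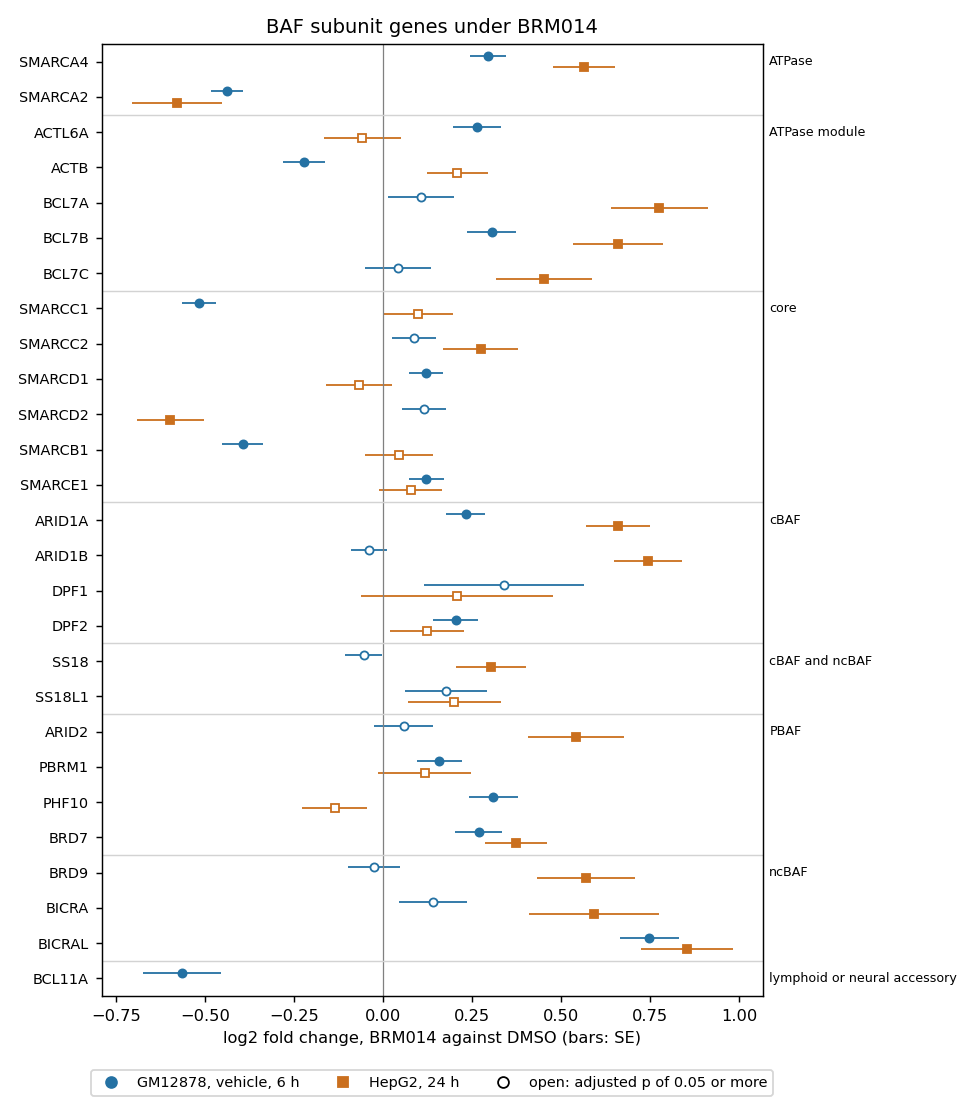
Log2 fold change of BRM014 against DMSO with its SE (horizontal axis) for 27 members in GM12878 with vehicle at 6 h (circles) and HepG2 at 24 h (squares); filled symbols are called, and BCL11A was tested in GM12878 alone. SMARCA4, SMARCA2 and BICRAL lie on the same side in both lines, while SMARCC1 and SMARCB1 are lower in GM12878 and SMARCD2 in HepG2.

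Among the core subunits the response differed between the lines for 3 of 6 tested members, SMARCC1, SMARCB1 and SMARCD2. Of all genes 22.6% were called in this test. SMARCC1, a scaffold on which the core assembles, had 333 and 324 CPM with DMSO and 222 and 236 CPM with BRM014 in GM12878, where it fell by 0.52 ± 0.046. In HepG2 it had 183.5 and 214 CPM with DMSO and 221 and 203 CPM with BRM014, overlapping groups with a difference of 0.10 ± 0.097. The difference between the lines was 0.57 ± 0.14 (edgeR adjusted p = 0.0052), and it was called without each library in turn.

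SMARCB1, named for its values although outside the rule for members given in full, had 222 and 204.5 CPM with DMSO and 163 and 161 CPM with BRM014 in GM12878. It fell there by 0.40 ± 0.058, and in HepG2 had 116 and 108 CPM with DMSO and 113 and 119 CPM with BRM014 (0.04 ± 0.096). The difference between the lines, 0.40 ± 0.12, was lost without HepG2 BRM014 replicate 1 (0.36, edgeR adjusted p = 0.0809), DMSO vehicle replicate 1 (0.34, 0.137), BRM014 vehicle replicate 1 (0.40, 0.116) or BRM014 vehicle replicate 2 (0.38, 0.143).

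SMARCD2, of the family whose members bridge the core to transcription factors, showed the reverse. It had 141 and 137 CPM with DMSO and 89.9 and 94.2 CPM with BRM014 in HepG2, where it fell by 0.60 ± 0.095. In GM12878 it had 144 and 128 CPM with DMSO and 146 and 147 CPM with BRM014 (0.11 ± 0.061, not called). The difference between the lines was -0.75 ± 0.13 (edgeR adjusted p = 0.000212) and was called without each library in turn. Its share of the SMARCD genes' TPM in HepG2 was 62.8% and 60.8% with DMSO and 50.9% and 54.4% with BRM014.

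The other core calls were small. SMARCD1 (0.12 ± 0.047) and SMARCE1 (0.12 ± 0.049) rose in GM12878. SMARCD1 was lost without DMSO vehicle replicate 2 (0.08) or BRM014 vehicle replicate 1 (0.13) or 2 (0.10), and SMARCE1 was lost without any 1 of the 4 libraries (0.10 to 0.14). With all libraries both were lost in DESeq2, with no filter and with only the compared groups, and SMARCE1 also with DESeq2 size factors. SMARCC2, the paralogue of SMARCC1, rose in HepG2 by 0.27 ± 0.11, a call lost without any 1 of the 4 libraries (0.23 to 0.35), and differed in GM12878 by 0.09 ± 0.062 without a call. With all libraries the SMARCC2 call in HepG2 was lost in DESeq2, with no filter and with the replicate block.

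**Figure D4:**
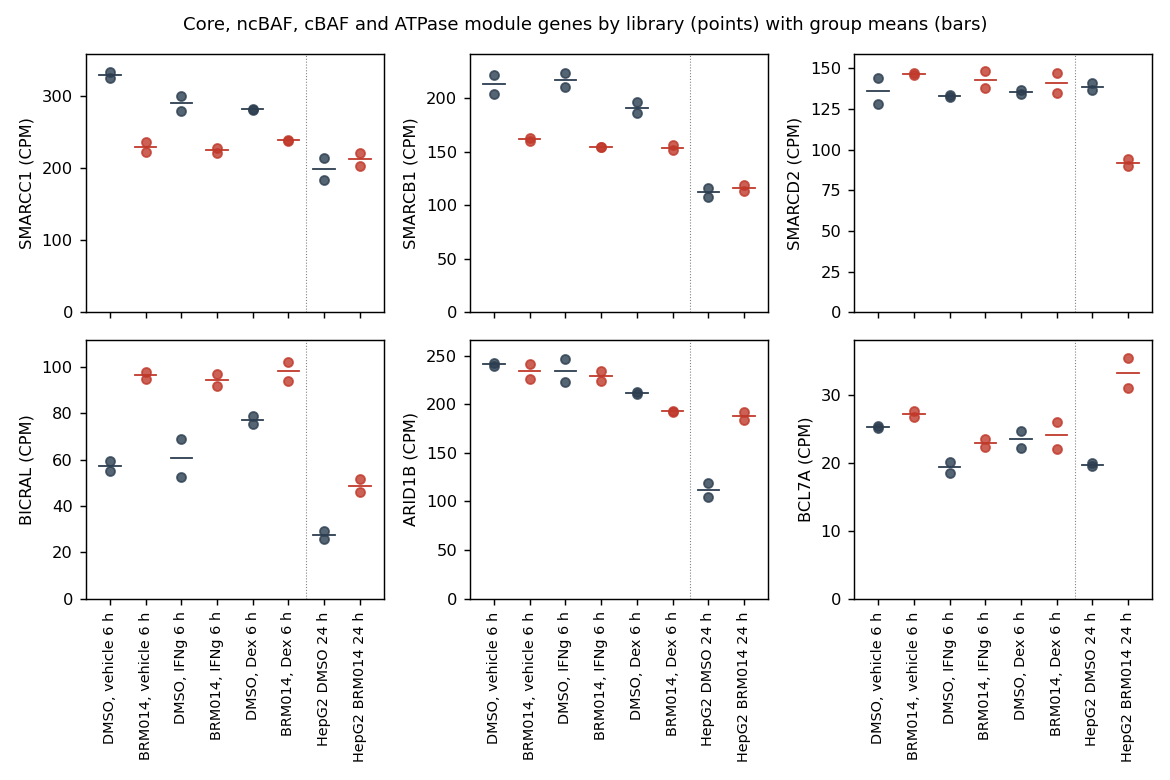
CPM (vertical axes, starting at 0) of 6 members by library in the 6 h pretreatment groups and in HepG2 (right of the dotted line); points are libraries, bars group means, red marks BRM014. SMARCC1 and SMARCB1 lie lower with BRM014 in all 3 GM12878 arms, SMARCD2 lies lower in HepG2, BICRAL lies higher in all 4 comparisons, and ARID1B and BCL7A lie higher in HepG2.

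In the ATPase module, which couples the ATPase to actin and actin-like proteins, the BCL7 genes stood out in HepG2. BCL7A had 19.47 and 20.02 CPM with DMSO and 35.4 and 31.1 CPM with BRM014 there (0.78 ± 0.14), and in GM12878 25.2 and 25.4 CPM with DMSO and 26.8 and 27.6 CPM with BRM014 (0.11 ± 0.093, not called). BCL7B had 26.6 and 29.5 against 43.6 and 46.1 CPM in HepG2 (0.66 ± 0.13) and 59.7 and 53.9 against 69.7 and 70.02 CPM in GM12878 (0.30 ± 0.069). BCL7B rose in both lines, and its groups did not overlap in either.

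BCL7C had 57.1 and 41.3 CPM with DMSO and 66.6 and 66.5 CPM with BRM014 in HepG2, where it rose by 0.45 ± 0.14, a call lost without DMSO replicate 2 (0.22, edgeR adjusted p = 0.245). In GM12878 it had 25.2 and 24.9 against 25.3 and 26.2 CPM (0.04 ± 0.093). ACTL6A, the actin-like subunit of proliferating cells, rose in GM12878 by 0.26 ± 0.068, lost without DMSO vehicle replicate 2 (0.18, edgeR adjusted p = 0.0941), and differed in HepG2 by -0.06 ± 0.11. ACTB fell in GM12878 by 0.22 ± 0.059, lost without DMSO vehicle replicate 1 (-0.11, edgeR adjusted p = 0.184), and differed in HepG2 by 0.21 ± 0.085 without a call. ACTB has many near-identical pseudogene copies, and how their reads were shared is uncertain.

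In cBAF, ARID1A and ARID1B, the large paralogues that hold the complex together, were measured as follows. ARID1A had 258 and 264.5 CPM with DMSO and 296 and 318 CPM with BRM014 in GM12878 (0.23 ± 0.055), and 116 and 119 against 190.0 and 179.5 CPM in HepG2 (0.66 ± 0.090). It rose in both lines with no overlap of the groups. ARID1B had 242 and 239 against 226 and 242 CPM in GM12878 (-0.04 ± 0.050, overlapping groups) and 105 and 119 against 192 and 183 CPM in HepG2 (0.74 ± 0.095). The difference between the lines was called for ARID1B (0.74 ± 0.13, edgeR adjusted p = 0.000425), also without each library in turn. It was called for ARID1A as well (0.38 ± 0.12, edgeR adjusted p = 0.0318), but lost without HepG2 BRM014 replicate 1 (0.26), DMSO vehicle replicate 1 (0.40) or BRM014 vehicle replicate 1 (0.32) or 2 (0.42), and with the replicate block (0.38, edgeR adjusted p = 0.0644).

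DPF2, the main reader of histone marks in cBAF here, rose in GM12878 by 0.20 ± 0.064, a call lost without DMSO vehicle replicate 2 (0.09) or BRM014 vehicle replicate 1 (0.18), and differed in HepG2 by 0.12 ± 0.10. DPF3 was near the limit of detection in HepG2, with 22 counts over the DMSO libraries and 2 with BRM014, a depth-scaled ratio of 0.106 (95% exact interval 0.0121 to 0.432, counting error only). SS18, the subunit shared with ncBAF, rose in HepG2 by 0.30 ± 0.099, lost without DMSO replicate 1 (0.29) or 2 (0.30) or BRM014 replicate 1 (0.28), and in GM12878 differed by -0.05 ± 0.052. With all libraries the SS18 call in HepG2 was lost in DESeq2 and with the replicate block. SS18L1 and DPF1 were called in neither line.

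Of the 4 PBAF subunits, 3 rose in GM12878 and 2 in HepG2. Of all genes 18.4% and 19.3% rose, and 4 genes are too few to set a share against these. BRD7, a bromodomain protein, rose in both (0.27 ± 0.065 and 0.37 ± 0.087). ARID2, which defines PBAF, had 36.5 and 49.9 CPM with DMSO and 64.3 and 62.5 CPM with BRM014 in HepG2 (0.54 ± 0.14), a call lost without DMSO replicate 1 (0.34, edgeR adjusted p = 0.0564). In GM12878 it had 40.9 and 48.99 against 46.4 and 47.8 CPM, overlapping groups. PHF10 rose in GM12878 by 0.31 ± 0.069 and differed in HepG2 by -0.14 ± 0.090. PBRM1, the subunit with many bromodomains, rose in GM12878 by 0.16 ± 0.063, lost without DMSO vehicle replicate 1 (0.11) or BRM014 vehicle replicate 1 (0.17) or 2 (0.14), and was not called in HepG2. With all libraries the PBRM1 call was lost in DESeq2, with its size factors, with no filter and with only the compared groups.

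All 3 ncBAF subunits rose in HepG2, and 1 of 3 in GM12878. Of all genes 19.3% and 18.4% rose, and 3 genes are too few to set a share against these. BICRAL, a scaffold of ncBAF, had 55.1 and 59.3 CPM with DMSO and 97.6 and 94.95 CPM with BRM014 in GM12878, the largest rise of a member there (0.75 ± 0.083, edgeR adjusted p = 4.54e-08). In HepG2 it had 25.6 and 29.0 against 51.8 and 45.8 CPM (0.85 ± 0.13, edgeR adjusted p = 4.49e-05). Its groups did not overlap in either line, and the difference between the lines was 0.07 ± 0.15.

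Its paralogue BICRA had 9.95 and 9.83 CPM with DMSO and 13.97 and 16.95 CPM with BRM014 in HepG2 (0.59 ± 0.18; DESeq2 adjusted p = 0.0862), and 29.1 and 28.4 against 32.2 and 31.1 CPM in GM12878 (0.14 ± 0.096, not called). BRD9, the bromodomain protein that marks ncBAF, had 27.3 and 25.3 against 36.1 and 43.9 CPM in HepG2 (0.57 ± 0.14) and 46.2 and 48.8 against 45.9 and 47.6 CPM in GM12878 (-0.03 ± 0.073, overlapping groups). The difference between the lines for BRD9 was 0.55 ± 0.15, lost without BRM014 vehicle replicate 1 (0.52, edgeR adjusted p = 0.0713). BCL11A, a zinc finger factor of lymphoid cells, had 25.9 and 26.5 CPM with DMSO and 17.7 and 17.8 CPM with BRM014 in GM12878, where it fell by 0.56 ± 0.11.

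The test of the difference between the lines called 10 of 29 members, 7 higher and 3 lower in HepG2, against a background of 22.6% of genes, 9.44% higher and 13.2% lower. ARID1B, SMARCC1 and SMARCD2 kept the call without each library and under every other setting tried. The other 7 lost it without at least 1 library. DPF3 (-2.75 ± 0.92) kept it in 1 of 8 such fits and ranged from -6.14 (without HepG2 BRM014 replicate 1) to -1.71 (without HepG2 DMSO replicate 2). The count was 4 without BRM014 vehicle replicate 1, 5 without BRM014 vehicle replicate 2 or HepG2 BRM014 replicate 1, and 6 without DMSO vehicle replicate 1. HepG2 was exposed for 24 h and GM12878 for 6 h, so line and time cannot be told apart.

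The IFNg and Dex arms showed which GM12878 changes recurred in other libraries. With IFNg at 6 h, 7 members rose and 6 fell (background 33.6% of genes called, 15% higher and 18.7% lower). With Dex 8 rose and 6 fell (37.7%, 17.1% higher and 20.6% lower). The share of all genes called alike in all 3 arms was not counted, so the overlap of members has no background. The call and direction were shared by all 3 arms for 10 of 29 members: SMARCA4, ARID1A, DPF2, PHF10, BRD7 and BICRAL rose, and SMARCA2, SMARCC1, SMARCB1 and ACTB fell. SMARCC1 fell by 0.37 ± 0.047 with IFNg and by 0.24 ± 0.047 with Dex, SMARCB1 by 0.49 ± 0.058 and 0.31 ± 0.058, and BICRAL rose by 0.64 ± 0.085 and 0.35 ± 0.082. Of these, DPF2 was lost in the IFNg arm without any 1 of the 4 libraries (0.13 to 0.20) and in the Dex arm without DMSO replicate 1 (0.22) or 2 (0.19) or BRM014 replicate 1 (0.16). PHF10 was lost with IFNg without BRM014 replicate 1 (0.23), and with Dex without DMSO replicate 1 (0.22) or 2 (0.16) or BRM014 replicate 1 (0.16). BRD7 was lost with IFNg without DMSO replicate 2 (0.19) or BRM014 replicate 1 (0.18), and ACTB with Dex without DMSO replicate 1 (-0.13) or BRM014 replicate 1 (-0.15). BCL11A fell with IFNg (-0.66 ± 0.11) and with Dex differed by -0.22 ± 0.12 without a call. Without 1 library the counts fell to as few as 8 with IFNg (without BRM014 replicate 1) and 9 with Dex (without DMSO or BRM014 replicate 1).

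At 1 h no member was called in any arm, against backgrounds of 2.05% with vehicle (0.599% higher, 1.46% lower), 2.2% with IFNg (0.619% higher, 1.58% lower) and 1.91% with Dex (0.58% higher, 1.33% lower). At an unadjusted p under 0.05 there were 2, 1 and 1 members, and DESeq2 also called 0 in each arm. The mean of the 3 arms at 1 h called 2 members, both higher (6.98% of genes, 2.56% higher and 4.43% lower), BICRAL (0.18 ± 0.050) and BCL7B (0.14 ± 0.040). DESeq2 called 1 of them, and leaving out DMSO vehicle, DMSO IFNg or DMSO Dex replicate 1, or BRM014 vehicle or IFNg replicate 2, left 0. The mean at 6 h called 23 members, 16 higher and 7 lower (56.6% of genes, 27.8% higher and 28.7% lower). The change from 1 h to 6 h was called for 16, 9 higher and 7 lower (38.2%, 17.2% higher and 21% lower). Of these, SS18L1 (0.24 ± 0.096, edgeR adjusted p = 0.0451) kept the call in 9 of 24 fits with 1 library left out (0.17 to 0.31) and lost it in DESeq2 (adjusted p = 0.124).

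With Dex and no BRM014, SMARCA2 rose in both experiments. In the panel SMARCA2 had 705 and 690.0 CPM with DMSO, 706 and 741 CPM with PBS and 1272 and 1283 CPM with Dex. It rose by 0.85 ± 0.035, and in the pretreatment experiment, after DMSO, by 0.86 ± 0.045 (edgeR adjusted p = 1.28e-19 and 1.44e-15). At 1 h of Dex after DMSO it had 689 and 707 CPM, against 689 and 696 CPM with vehicle. SMARCA4 had 205 and 192 CPM with Dex in the panel, against 211 to 225 CPM in the 4 vehicle libraries, and fell by 0.13 ± 0.039, a call lost without Dex replicate 2 (-0.08, edgeR adjusted p = 0.258). In the pretreatment experiment SMARCA4 differed by -0.14 ± 0.052 without a call. SMARCA2 held 85.1% and 86.5% of the TPM of the ATPase pair with Dex in the panel and 74.9% to 79.2% with vehicle.

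In the panel 13 of 29 members changed with Dex, 5 higher and 8 lower, against a background of 25.7% of 15775 genes, 13% higher and 12.7% lower. In the pretreatment experiment 5 rose and 4 fell (background 15.6%, 8.06% higher and 7.53% lower). The experiments share no libraries, and 7 members were called in the same direction in both, 53.8% of the panel list and 77.8% of the other. SMARCA2, ARID1A and BICRAL rose in both, and SMARCC1, ARID1B, DPF3 and BCL11A fell. The share of all genes called alike in both experiments was not counted. BICRAL rose by 0.33 ± 0.053 and 0.43 ± 0.085, and BCL11A fell by 0.69 ± 0.084 and 0.49 ± 0.11. ARID2 fell in the panel by 0.38 ± 0.064, SS18L1 rose by 0.36 ± 0.079, and neither was called in the other experiment (-0.19 ± 0.086 and 0.07 ± 0.12).

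The fall of DPF3 was lost in the panel without Dex replicate 2 (-0.47), and that of BCL11B in the panel (-1.74 ± 0.56, at under 1.2 CPM) without DMSO replicate 1 (-1.57) or Dex replicate 2 (-0.97). With all libraries both were lost in DESeq2 (adjusted p = 0.0759 and 0.0934). DPF3 was also lost with PBS as the only control, and BCL11B with DMSO as the only control. After DMSO, the calls of SMARCA2, BICRAL and SMARCC1 were kept under every setting. The other 6 were lost without at least 1 library. BCL7C was lost without any 1 of the 4 libraries (0.20 to 0.32), and BCL7B without vehicle replicate 2 (0.15) or Dex replicate 2 (0.18). With all libraries both were lost with only the compared groups, and BCL7C also in DESeq2, with no filter and with the replicate block. BCL11A was lost without Dex replicate 1 (-0.41), and ARID1A without vehicle replicate 1 (0.18) or Dex replicate 2 (0.16). ARID1B was lost without vehicle replicate 1 (-0.18) or Dex replicate 1 (-0.19) or 2 (-0.18), and DPF3 without the same libraries (-0.77, -1.01 and -0.76). The DPF3 call after DMSO was also lost in DESeq2 with all libraries (adjusted p = 0.0777). The count was 4 without Dex replicate 2 and 5 without Dex replicate 1.

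**Figure D5:**
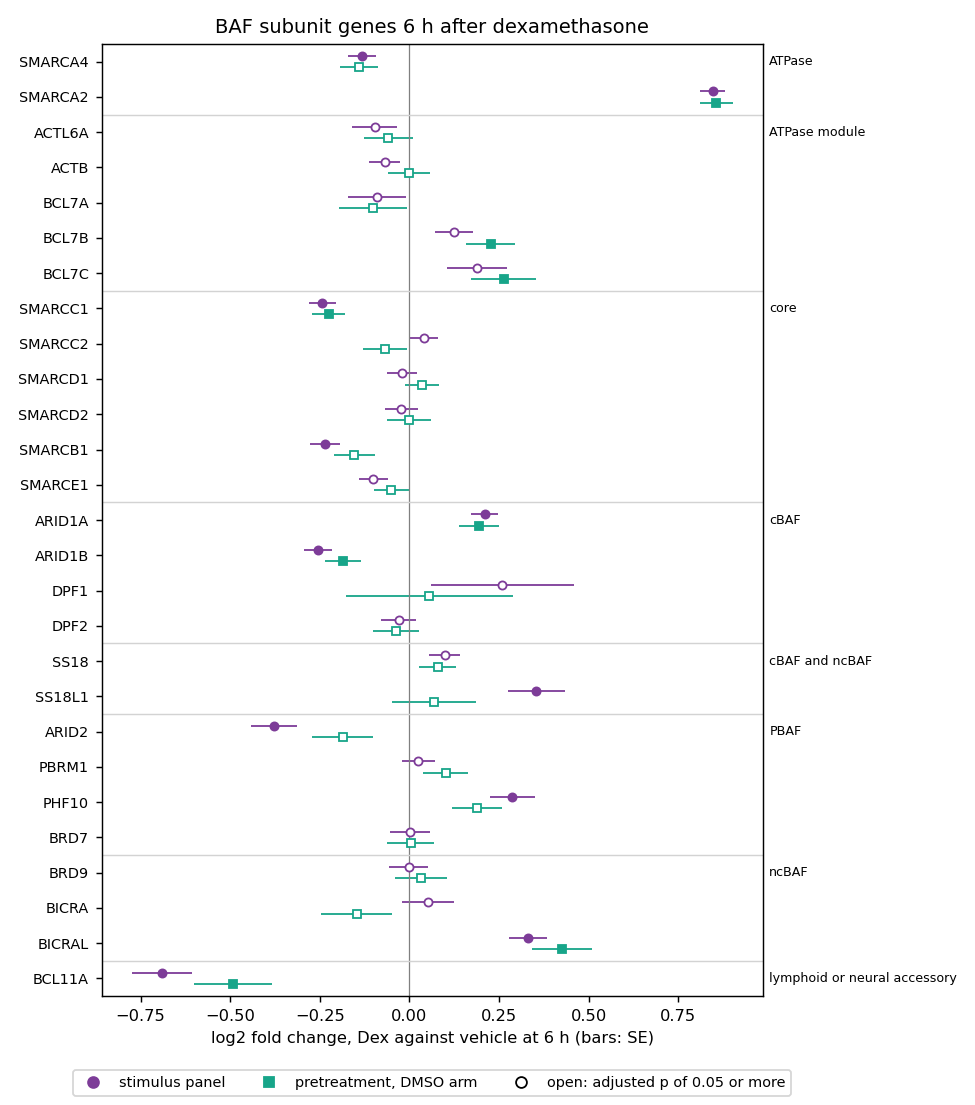
Log2 fold change of Dex against vehicle at 6 h with its SE (horizontal axis) for 27 members in the panel (circles) and in the DMSO arm of the pretreatment experiment (squares), which share no libraries; filled symbols are called. SMARCD3, ACTL6B, DPF3 and BCL11B are not drawn. Among the members drawn, SMARCA2 stands apart at 0.85 and 0.86, and BCL11A is lowest at -0.69 and -0.49. The lowest value of any member tested was -1.74 in the panel and -1.15 after DMSO.

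The response of SMARCA2 to Dex differed after BRM014. With DMSO the means were 691 ± 21.4 CPM with vehicle and 1252 ± 18.5 CPM with Dex (SD, n = 2), and with BRM014 they were 510.1 ± 20.6 and 673 ± 6.12 CPM. The interaction was -0.46 ± 0.064 (edgeR adjusted p = 1.56e-05), a smaller Dex response after BRM014, and was called under every setting tried. The 2 members called in this test compare with 2.76% of genes, 1.04% higher and 1.72% lower. The other was SMARCC1, which fell with Dex after DMSO and had 222 and 236 CPM with vehicle and 237 and 239 CPM with Dex after BRM014. Its interaction of 0.28 ± 0.066 was lost without DMSO Dex replicate 1 (0.28) or 2 (0.26), BRM014 vehicle replicate 1 (0.24) or BRM014 Dex replicate 2 (0.28). BICRAL had an interaction of -0.40 ± 0.12 that was not called (edgeR adjusted p = 0.0664). No member was called for the interaction with IFNg (0.198% of genes; SMARCC1 alone at an unadjusted p under 0.05, and 0 by DESeq2).

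With IFNg and no BRM014, 2 of 29 members rose in the panel and 5 fell (background 11.9%, 7.11% higher and 4.75% lower), a share of lower members above the background. BICRAL fell by 0.26 ± 0.057, from 53.8 to 61.0 CPM over the 4 vehicle libraries to 48.1 and 48.2 CPM, and kept the call under every setting. BCL7A fell by 0.39 ± 0.086, from 22.3 to 24.96 CPM to 19.4 and 17.1 CPM, a call lost without IFNg replicate 2 (-0.29, edgeR adjusted p = 0.121). BCL7A (-0.38 ± 0.098) and SMARCC1 (-0.18 ± 0.046) were also the members called with IFNg after DMSO (background 6.62%, 3.47% higher and 3.15% lower), and there both calls were lost without DMSO vehicle replicate 1 (-0.38 and -0.16) or DMSO IFNg replicate 1 (-0.33 and -0.13), and that of BCL7A without DMSO vehicle replicate 2 (-0.37).

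In the panel DPF3 fell by 0.83 ± 0.23 with IFNg, lost without IFNg replicate 1 (-0.60). SMARCC1 fell by 0.14 ± 0.038, lost without IFNg replicate 1 (-0.15) or 2 (-0.13). BICRA rose by 0.21 ± 0.072, SMARCD2 fell by 0.15 ± 0.047 and SMARCA2 rose by 0.12 ± 0.036. BICRA was lost without DMSO replicate 1 or 2, PBS replicate 2 or IFNg replicate 1 or 2 (0.15 to 0.22), and SMARCD2 without DMSO replicate 2, PBS replicate 1 or IFNg replicate 1 or 2 (-0.15 to -0.13). SMARCA2 was lost without DMSO replicate 2 (0.11) or IFNg replicate 1 (0.13) or 2 (0.12). BICRAL, which fell with IFNg in the panel, differed by 0.07 ± 0.087 with IFNg after DMSO.

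IL2, TNF and LPS changed no member in edgeR, against backgrounds of 0.203%, 0.019% and 0% of genes. At an unadjusted p under 0.05 there was 1 member each (DPF3, SMARCA2 and BICRAL), and DESeq2 also called 0. In the single Dox library 1 member passed a 1.5-fold difference beyond all 4 vehicle libraries, against 1.44% of genes higher and 1.45% lower. This was BCL11A, with 18.3 CPM against 27.0 to 30.2 CPM, and there is no replicate check. The panel comparisons share their vehicle libraries, and within the pretreatment experiment the DMSO vehicle libraries serve both the Dex and the BRM014 comparison, so these lists are not independent.

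Other lists of chromatin genes gave the setting for these counts. With BRM014 and vehicle at 6 h, 3 of 22 tested remodellers outside the BAF family (CHD, ISWI, INO80 and related) rose and 3 fell. Of 28 Polycomb genes 6 rose and 2 fell, and of 13 coactivator genes 4 rose and 0 fell. The shares of all genes were 18.4% higher and 20.1% lower there, and 19.3% higher and 22.8% lower in HepG2. SMARCAL1 rose by 0.64 ± 0.072 and CHD4, the ATPase of the NuRD complex, fell by 1.07 ± 0.11. In HepG2, 11 of 23 remodellers rose and 1 fell, 12 of 28 Polycomb genes rose and 6 fell, and 8 of 13 coactivator genes rose and 0 fell. The HepG2 medians were 0.29 for remodellers, 0.19 for Polycomb and 0.35 for coactivators, beside 0.24 for the BAF members, and the GM12878 medians were 0.01, 0.04 and 0.14 beside 0.11. CBX2 of Polycomb fell in HepG2 by 1.5 ± 0.11, and the histone methyltransferase gene EZH1 rose by 1.35 ± 0.17. With Dex in the panel 4 of 22 remodellers rose and 3 fell, 3 of 28 Polycomb genes rose and 1 fell, and 2 of 13 coactivators rose and 6 fell. The shares of all genes were 13% higher and 12.7% lower.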

How the data were processed

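Polyadenylated RNA of 43 libraries in 22 groups was sequenced, and 31 genes were read from the deposited gene tables by Ensembl ID. The authors deposited RSEM expected counts, per the file headers, which carry no depth or length scaling and were rounded to whole numbers (2.48% to 4.74% of values per library were not whole). Levels between genes use the deposited TPM of the same tables. STAR, RSEM and hg38 appear in the submitters' processing notes, and versions, annotation release and use of strand are not given in the sources used here. The libraries are stranded per the labels' protocols, but reads of a member and of a gene that overlaps it may be shared. Of 59526 identifiers per file 746 are not Ensembl genes, hold 0 counts and were left out, and 58252 of 58780 matched a symbol of GENCODE 44.

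Each experiment was fitted in edgeR 4.0.16 (filterByExpr, TMM, robust quasi-likelihood F test, 2-sided, no covariates): pretreatment with 24 libraries and 15183 genes, panel with 15 and 15775, HepG2 with 4 and 13349, and both lines with 8 and 15902. Residual degrees of freedom were 12, 7, 2 and 4. The threshold for a call was an adjusted p of 0.05 (Benjamini-Hochberg, all genes of the comparison). Each panel stimulus was compared with DMSO and PBS, averaged as groups. The Dox library was compared as log2 of CPM plus 1, with no test. The SE was derived from the fitted change and its F statistic (absolute change divided by the root of F). CPM of different experiments were scaled apart.

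SMARCA4 and SMARCA2 were named always, with values for the 12 other members of largest called change under BRM014, up to 6 called members per stimulus and up to 4 genes per other list by smallest p. The members, lists and roles were chosen with earlier results of these data known. Replicate libraries differed by more than sampling noise (lowest chi-square per degree of freedom 2.52). Alternatives were DESeq2 1.42.0 (Wald test) and its size factors, no filter, a replicate block, only the compared groups, 1 vehicle alone, panel DMSO as the GM12878 control and each library left out. The fits were tested on simulated data with known changes. Promoter letters are from RefSeq.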

Additional observations from a re-analysis of the deposited data

Results flagged for a closer look

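The response of SMARCA2 to Dex differed after BRM014 by -0.46 on the log2 scale, and that of SMARCC1 by 0.28, by the interaction test in edgeR.

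The response to BRM014 differed between HepG2 at 24 h and GM12878 at 6 h for 10 members, by the test of the difference. On the log2 scale the difference was 0.74 for ARID1B, 0.64 for BCL7A, 0.57 for SMARCC1, 0.55 for BRD9, 0.40 for SMARCB1, 0.38 for ARID1A and 0.38 for ACTB. It was -0.49 for PHF10, -0.75 for SMARCD2 and -2.75 for DPF3, which had 22 counts or fewer in each HepG2 group. The DPF3 value ranged from -6.14 to -1.71 with 1 library left out, its call was kept in 1 of 8 such fits, and it was lost with the replicate block (edgeR adjusted p = 0.0763) and in DESeq2 (adjusted p = 0.144). Line, exposure time and experiment cannot be told apart here.

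In GM12878 the response to BRM014, as the mean of the vehicle, IFNg and Dex arms, differed between 1 h and 6 h for 16 members. The change from 1 h to 6 h was 0.40 for BICRAL, 0.34 for SMARCA4, 0.29 for ARID1A, 0.24 for BRD7, 0.24 for SS18L1, 0.23 for PHF10, 0.20 for ACTL6A, 0.19 for DPF2 and 0.16 for SMARCC2. It was -0.54 for SMARCA2, -0.47 for BCL11A, -0.38 for SMARCB1, -0.34 for SMARCC1, -0.21 for ACTB, -0.16 for SS18 and -1.18 for BCL11B, which stayed under 1.5 CPM in every library. The SS18L1 call was kept in 9 of 24 fits with 1 library left out and lost in DESeq2 (adjusted p = 0.124), and that of BCL11B was lost in DESeq2 (adjusted p = 0.0524).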

How the results depend on the processing

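Of 2141 values of named members under other settings, 1876 kept their call, 265 lost it and 0 changed direction. With 1 library left out, members called ranged from 12 to 14 for BRM014 with vehicle at 6 h (16 with all libraries), 8 to 12 with IFNg (13), 9 to 12 with Dex (14), 0 to 2 for the 1 h mean (2), 12 to 15 in HepG2 (15) and 4 to 13 for the difference between the lines (10). They ranged from 1 to 2 for the Dex interaction (2), 0 to 3 for IFNg after DMSO (2), 4 to 9 for Dex after DMSO (9), 2 to 7 for panel IFNg (7) and 11 to 15 for panel Dex (13). With all libraries kept, some calls were lost under other settings. For BRM014 at 6 h every setting kept 12 of 16 calls with vehicle, 10 of 13 with IFNg and 12 of 14 with Dex. In HepG2 12 of 15 were kept. For Dex after DMSO 6 of 9 were kept, for panel IFNg 3 of 7 and for panel Dex 10 of 13. DESeq2 called 1 member for the 1 h mean and 4 for panel IFNg. With only the compared groups, panel IFNg gave 4 members and IFNg after DMSO gave 0, and with PBS as the only control panel IFNg gave 3. The cause was not tested.

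Replicate numbers showed no clear pairing of the samples. Correlations of same-numbered deviations were -0.25 to 0.28 in the pretreatment experiment, -0.09 to 0.23 in the panel and -0.24 in HepG2. The HepG2 value rests on 1 pair of groups, and weak correlations cannot exclude that same-numbered libraries were handled together. With the replicate block, 16 members were called for BRM014 with vehicle at 6 h, 13 in HepG2, 8 for Dex after DMSO and 7 for the difference between the lines. A crossed block in HepG2, added after the data were seen, called 17 members, against 15 without a block.

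Groups of 2 libraries and the 3.06 M counts of HepG2 BRM014 replicate 2 limit what small differences can be shown, and DPF3 and BCL11B were near the detection limit. Members that were not called were not shown to be unchanged.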
